A study of Mus musculus with 9 samples.

Results

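The glutathione transferases and the aldo-keto reductases of the Akr1 subfamilies were examined in 9 RNA-seq libraries of mouse E14 embryonic stem cells (ESCs), an established line grown in serum with leukemia inhibitory factor. Genes were taken by symbol. Symbols of the form Gst, a class letter and a number, and all symbols that start with Akr1, gave 38 of the 25239 gene symbols in the counts, of which 22 were Gst genes and 16 were Akr1 genes. The families were chosen by the normalized counts of *Gsta3* and *Akr1cl*, which were higher in both mutants than in the control. Their values against the control are therefore given as a description, and the tests against the control concern the other members. The control was unmutated E14 (Rbbp4+/+). The other lines were Rbbp4Ins/Ins, in which both alleles of the histone-binding protein gene *Rbbp4* carried an insertion, and Rbbp4Ins/Del, in which the alleles carried an insertion and a deletion. Each mutant line was a single clone isolated after CRISPR-Cas9 targeting, so a difference between a mutant and the control is also a difference between a clone and the E14 cells. Each line had 3 libraries, and the sources used here do not say whether they came from separate cultures, so p-values measure only the spread between these libraries. RBBP4 is a subunit of Polycomb repressive complex 2 and of histone deacetylase complexes, and the study compared the lines to ask how mutated RBBP4 changes transcription.

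Glutathione transferases couple the tripeptide glutathione to electrophilic compounds such as lipid aldehydes, drugs and carcinogens. The cytosolic enzymes fall into classes named by Greek letters (alpha, mu, pi, theta, omega, sigma and zeta), and the kappa enzyme is found in mitochondria and peroxisomes. The Akr1 enzymes use NADPH to reduce aldehydes and ketones, and the Akr1c enzymes act largely on steroids and prostaglandins. Many genes of both families are known targets of the stress-response factor NRF2, which binds the antioxidant response element, and several are typical of liver.

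All libraries had between 15838064 and 21366868 counted reads, and their scaling factors lay between 0.993 and 1.02. Normalized counts below are counts scaled to the mean effective library size, so that 1 normalized count is close to 1 read. In the control, *Rbbp4* stood at 9932, 9965 and 10117 normalized counts, with 5485, 5551 and 5776 in Rbbp4Ins/Ins and 10129, 10344 and 10603 in Rbbp4Ins/Del. It was thus lower in every Rbbp4Ins/Ins library, whereas Rbbp4Ins/Del did not fall below the control. The ESC label was checked with 8 ESC markers, all of which were expressed in every line, with *Pou5f1* at a mean of 18059, 16615 and 17668 normalized counts in control, Rbbp4Ins/Ins and Rbbp4Ins/Del. Of the 8 markers, 6 were higher and 1 lower in Rbbp4Ins/Ins, and 5 were higher and 0 lower in Rbbp4Ins/Del, among them *Zfp42* (1.87-fold and 2.08-fold) and *Klf4* (1.65-fold and 1.71-fold). The mutants differed from the control at most expressed genes. At an adjusted p of at most 0.01 (edgeR, Benjamini-Hochberg), 58.4% of the 14125 tested genes differed in Rbbp4Ins/Ins and 62.5% in Rbbp4Ins/Del. Of all tested genes, 29.0% were higher and 29.4% lower in Rbbp4Ins/Ins, and 30.6% were higher and 31.9% lower in Rbbp4Ins/Del.

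*Gsta3* encodes an alpha-class transferase that in mouse liver conjugates the epoxide of aflatoxin. It lies on chromosome 1 from 21240589 to 21265661 (GRCm38, plus strand). It had 15.4, 23.0 and 18.4 normalized counts in the control, 105, 112 and 100.4 in Rbbp4Ins/Ins, and 136, 152 and 157 in Rbbp4Ins/Del. The lines did not overlap, and the means were 5.58-fold and 7.84-fold above the control in Rbbp4Ins/Ins and Rbbp4Ins/Del. *Akr1cl*, an Akr1c-like gene outside the Akr1c cluster, lies on the minus strand of chromosome 1 from 65012689 to 65032759. It had 1.71, 0 and 2.17 normalized counts in the control, 103, 104 and 119 in Rbbp4Ins/Ins, and 262, 329 and 359 in Rbbp4Ins/Del. No control library held more than 3 reads, and against a floor of 3 reads per control library the mean was at least 36.5-fold higher in Rbbp4Ins/Ins and at least 106-fold higher in Rbbp4Ins/Del. In *Akr1cl*, 11.7% of the exonic bases overlap *Gm8550* on the opposite strand, which is not among the counted symbols. The strand setting of the counting is not given in the sources used here, so *Gm8550* reads of the overlap may be counted in *Akr1cl*.

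These genes also differed between the mutants, a contrast that did not choose them. *Akr1cl* was 2.91-fold higher in Rbbp4Ins/Del than in Rbbp4Ins/Ins (log2 difference 1.54 ± 0.12 SE, edgeR adjusted p = 8.31e-13, n = 3 each), with every Rbbp4Ins/Del library above every Rbbp4Ins/Ins library. *Gsta3* was 1.40-fold higher (log2 difference 0.49 ± 0.12 SE, edgeR adjusted p = 0.00379). The *Gsta3* call was lost with DESeq2 and when Rbbp4Ins/Ins replicate 1 or 3 or Rbbp4Ins/Del replicate 2 or 3 was left out, with differences between 0.45 and 0.50 in those fits. The 5 markers of 2-cell-like cells moved in the same order, with a summed level of 801 to 831 normalized counts in the control, 2031 to 2082 in Rbbp4Ins/Ins and 2911 to 3081 in Rbbp4Ins/Del. All 5 (*Zscan4c*, *Zscan4d*, *Zscan4f*, *Tcstv3* and *Zfp352*) were called higher in both mutants, where 29.0% and 30.6% of all tested genes were. The part of these markers in the result was not tested.

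**Figure D1:**
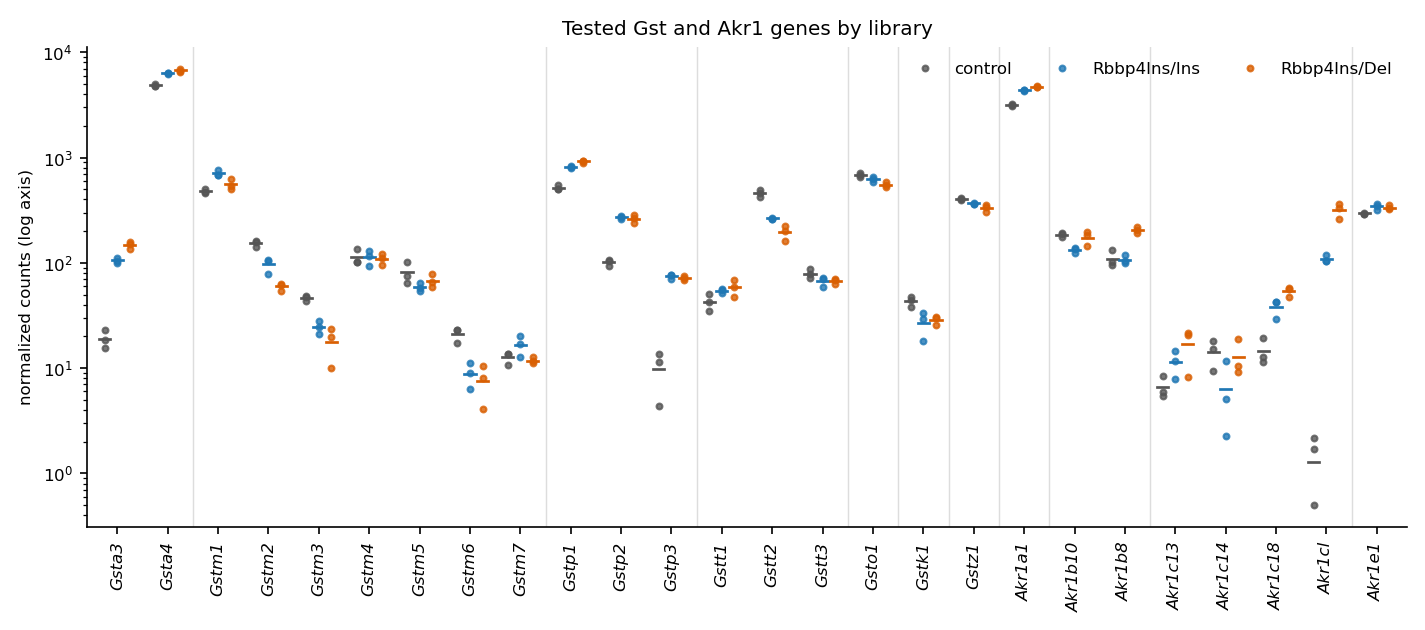
Normalized counts (log axis) of the 26 tested genes, ordered by class, in the 3 control, 3 Rbbp4Ins/Ins and 3 Rbbp4Ins/Del libraries. Points are libraries, bars are means, and values under 0.5 are drawn at 0.5. *Gsta4* and *Akr1a1* stand above the other genes in every line, and *Akr1cl* goes from 0 to 2.17 in the control to 262 to 359 in Rbbp4Ins/Del.

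The promoters of *Akr1cl* and *Gsta3* are shown because these genes chose the families and lie apart from each other and from their clusters, and those of the pi class because its genes moved together (described further on). The sequences are those of RefSeq on GRCm38.p6, from 250 bases before to 50 bases after the annotated start, read 5′ to 3′ in the direction of the gene. In *Akr1cl* and *Gsta3* the capitals mark the letters TGACNNNGC, the core of the antioxidant response element, on either strand. In *Gstp1* and *Gstp2* they mark TGAGTCAGC, a form of the element that the first pattern does not match and that was searched for after these promoters had been read.
Akr1cl (chr1:65032710-65033009, minus strand): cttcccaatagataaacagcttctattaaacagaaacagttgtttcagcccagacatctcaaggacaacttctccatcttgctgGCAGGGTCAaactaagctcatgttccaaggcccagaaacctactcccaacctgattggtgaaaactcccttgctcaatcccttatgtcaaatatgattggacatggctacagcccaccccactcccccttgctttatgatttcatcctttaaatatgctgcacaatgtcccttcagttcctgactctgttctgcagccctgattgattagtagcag
Gsta3 (chr1:21240335-21240634, plus strand): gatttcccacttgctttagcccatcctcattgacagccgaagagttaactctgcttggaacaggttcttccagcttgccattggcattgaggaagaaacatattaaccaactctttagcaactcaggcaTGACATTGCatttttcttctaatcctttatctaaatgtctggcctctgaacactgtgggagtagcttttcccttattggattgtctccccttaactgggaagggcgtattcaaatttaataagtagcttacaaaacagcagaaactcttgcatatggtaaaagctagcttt
Gstp1 (chr19:4037863-4038162, minus strand): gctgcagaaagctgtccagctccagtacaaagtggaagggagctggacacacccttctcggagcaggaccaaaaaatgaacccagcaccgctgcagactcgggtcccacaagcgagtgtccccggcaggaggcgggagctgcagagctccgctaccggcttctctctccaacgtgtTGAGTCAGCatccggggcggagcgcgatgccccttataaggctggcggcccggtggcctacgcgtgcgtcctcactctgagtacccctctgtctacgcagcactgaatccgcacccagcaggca
Gstp2 (chr19:4042172-4042471, minus strand): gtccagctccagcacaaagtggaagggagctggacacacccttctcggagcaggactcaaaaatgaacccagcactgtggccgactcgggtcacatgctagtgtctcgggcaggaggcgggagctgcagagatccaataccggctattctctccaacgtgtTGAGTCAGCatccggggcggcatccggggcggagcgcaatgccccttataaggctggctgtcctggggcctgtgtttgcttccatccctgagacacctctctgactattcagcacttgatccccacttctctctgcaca
Gstp3 (chr19:4059398-4059697, minus strand): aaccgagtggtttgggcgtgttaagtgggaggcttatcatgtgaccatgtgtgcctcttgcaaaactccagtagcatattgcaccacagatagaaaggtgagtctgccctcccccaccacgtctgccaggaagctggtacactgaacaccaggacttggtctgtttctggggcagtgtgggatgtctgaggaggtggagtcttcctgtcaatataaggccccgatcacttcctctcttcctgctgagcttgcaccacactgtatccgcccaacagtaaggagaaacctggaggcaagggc
The element core began 166 bases before the start of *Akr1cl*, on the strand opposite to the gene, and 121 bases before the start of *Gsta3*. Of the 34 members with a promoter entry, 5 held the core (also *Gstm5*, *Gstm7* and *Akr1c19*). Some members have several entries, and counted by entry the core was in 5 of 42, against 12.4% of 32851 promoter entries of the same length. The letters TGAGTCAGC stood 74 bases before the start of *Gstp1* and 89 bases before that of *Gstp2*, in no other member, and in 0.414% of all promoters. The core of the xenobiotic response element, GCGTG on either strand, was found in 8 of the 34 members. It was in 32.4% of all promoters, a share counted by entry and not by gene. *Akr1cl* had 0 CpG dinucleotides in this window and *Gsta3* had 2, while *Gstp1* had 20, against a median of 7. These matches describe letters only.

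The question for the families was whether the difference extended to the remaining members. Of the 38 genes, 26 passed the filter on low counts and 12 did not (*Akr1b3*, *Akr1b7*, *Akr1c6*, *Akr1c12*, *Akr1c19*, *Akr1c20*, *Akr1c21*, *Akr1d1*, *Gsta1*, *Gsta2*, *Gsto2* and *Gstt4*). None of these 12 had more than 11 reads in any library, and *Akr1c6*, *Akr1c20* and *Gsta1* had no read in any. Of the 50-base stretches in their transcripts, 90.5% in *Gsta1*, 49.8% in *Gsta2* and 28.6% in *Akr1c12* also occur in other genes. Reads of these 3 genes may therefore be missed by the counting. *Akr1cl* and *Akr1c13* passed the filter with no control library over its minimum, and *Gstm6* passed with 3 control libraries over it but only 1 of Rbbp4Ins/Ins and none of Rbbp4Ins/Del. The filter favours a difference in a gene that passes through one side alone, so no p against the control is given for these. Apart from *Gsta3* and *Akr1cl*, 24 members were tested. In Rbbp4Ins/Ins the test called 7 of the 24 higher and 5 lower, which is 29.2% and 20.8%, where 29.0% and 29.4% of all tested genes were called higher and lower. In Rbbp4Ins/Del it called 9 higher and 6 lower, which is 37.5% and 25%, against 30.6% and 31.9% of all genes. The shares called in either direction were 50% and 62.5%, beside 58.4% and 62.5% of all genes, and were thus not above the background. Without *Akr1c13*, *Akr1c14* and *Gstm6*, which had at most 1 library over the minimum in a line, 21 members were left, of which 7 were higher and 4 lower in Rbbp4Ins/Ins and 8 higher and 5 lower in Rbbp4Ins/Del, a count added after the data were seen. The median log2 fold change of the 24 was -0.0018 in Rbbp4Ins/Ins and -0.066 in Rbbp4Ins/Del, beside 0.0038 and -0.011 over all tested genes. Their absolute log2 fold change had a median of 0.53 in Rbbp4Ins/Ins and 0.52 in Rbbp4Ins/Del, beside 0.30 and 0.34 over all tested genes. The mutants share their control libraries, so their values are not independent of each other.

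**Figure D2:**
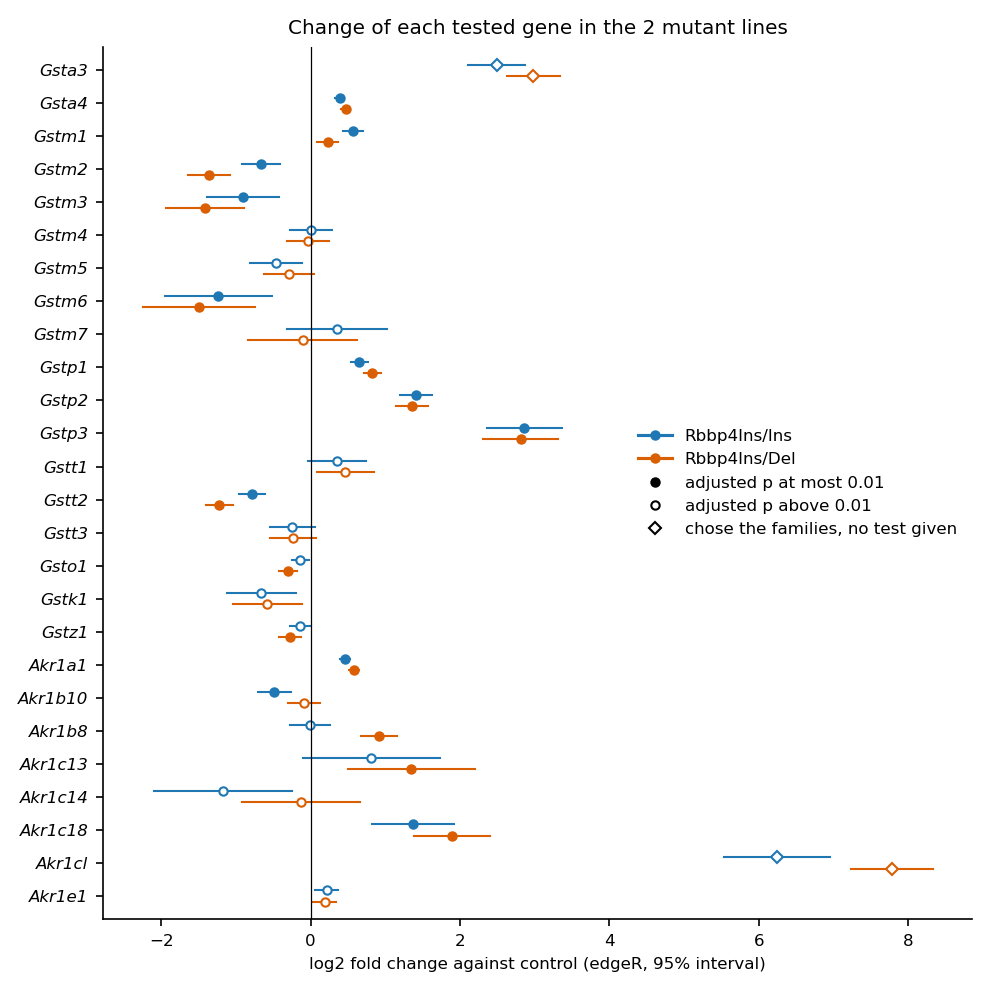
Log2 fold change against the control (edgeR, with 95% intervals) of the 26 genes that passed the filter, in Rbbp4Ins/Ins and Rbbp4Ins/Del. Filled circles passed an adjusted p of 0.01, and diamonds mark *Gsta3* and *Akr1cl*, which chose the families and whose change against the control is a description. The other members lie on both sides of 0, from -1.50 for *Gstm6* to 2.86 for *Gstp3*. *Akr1c13* passed the filter through mutant libraries alone and *Gstm6* through the control side, so their filled circles say little.

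In the alpha class, *Gsta4* was the most abundant transferase. It encodes an enzyme that prefers 4-hydroxynonenal and related products of lipid peroxidation. It had 4753, 4973 and 4823 normalized counts in the control, 6287, 6371 and 6400 in Rbbp4Ins/Ins, and 6515, 6681 and 6968 in Rbbp4Ins/Del. All mutant libraries lay above all control libraries, and the rise was 1.31-fold in Rbbp4Ins/Ins (log2 fold change 0.39 ± 0.03 SE, edgeR adjusted p = 2.6e-14) and 1.39-fold in Rbbp4Ins/Del (0.47 ± 0.03 SE, edgeR adjusted p = 7.07e-17). Per kilobase of exon, *Gsta4* stood at 3831 ± 88.4 normalized counts in the control (SD, n = 3), and *Gsta3* at 4.36. *Gsta4* made up 69.9% of the level per kilobase summed over the 22 Gst genes in the control, 70.7% in Rbbp4Ins/Ins and 73.0% in Rbbp4Ins/Del. The summed level was 5480 ± 135 per kilobase in the control, 7094 ± 14.2 in Rbbp4Ins/Ins and 7273 ± 209 in Rbbp4Ins/Del (SD, n = 3). *Gsta1* and *Gsta2*, which lie beside *Gsta4* on chromosome 9, were not tested.

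All 3 genes of the pi class rose in both mutants. They lie within 24.2 kb of chromosome 19, from 4035407 to 4059569, and pi-class enzymes conjugate electrophiles and bind signalling kinases. *Gstp1*, the most abundant of them, had 504, 548 and 505 normalized counts in the control, 831, 823 and 789 in Rbbp4Ins/Ins, and 883, 937 and 935 in Rbbp4Ins/Del. *Gstp2* had 105, 107 and 94.2 in the control, 275, 258 and 281 in Rbbp4Ins/Ins, and 283, 238 and 266 in Rbbp4Ins/Del. *Gstp3* had 13.7, 11.5 and 4.33 in the control, 71.0, 76.7 and 76.1 in Rbbp4Ins/Ins, and 72.6, 68.6 and 75.2 in Rbbp4Ins/Del. For each of these genes the mutant libraries all lay above the control libraries. *Gstp3* rose 7.58-fold in Rbbp4Ins/Ins (log2 fold change 2.86 ± 0.25 SE, edgeR adjusted p = 5.19e-13) and 7.33-fold in Rbbp4Ins/Del (2.81 ± 0.25 SE, edgeR adjusted p = 8.71e-13). *Gstp2* rose 2.66-fold and 2.57-fold (edgeR adjusted p = 4.37e-15 and 1.5e-14), and *Gstp1* rose 1.57-fold and 1.77-fold (edgeR adjusted p = 4.47e-13 and 2.54e-16). The size of the rise thus went in the order in which the genes lie on the chromosome, *Gstp1*, *Gstp2*, *Gstp3*, with *Gstp3* at the higher coordinate. The level ran the other way, at 335, 91.7 and 10.8 normalized counts per kilobase in the control for *Gstp1*, *Gstp2* and *Gstp3*. No pi-class gene was called different between the mutants. The log2 difference of *Gstp3* was -0.05, with a 95% interval from -0.39 to 0.29, and that of *Gstp1* was 0.17, from 0.07 to 0.28 (edgeR adjusted p = 0.0151). *Gstp1* and *Gstp2* are near copies: 33.7% of the 50-base stretches in *Gstp1* transcripts and 54.3% of those in *Gstp2* transcripts also occur in other genes, mostly in each other, so their counts may be split by the counting. *Gstp3* shares none. The promoters of *Gstp1* and *Gstp2* printed above share an unbroken run of 43 bases, whereas the longest run that either shares with *Gstp3* is 8 bases.

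The mu class went both ways within 149.1 kb of chromosome 3. Mu-class enzymes conjugate a wide range of epoxides and other xenobiotics. Of its 7 genes, all tested, *Gstm1* rose, *Gstm2* and *Gstm3* fell, *Gstm6* was lower but passed the filter through the control side, and *Gstm4*, *Gstm5* and *Gstm7* did not pass the test in either mutant. *Gstm1*, the most abundant mu gene, had 466, 505 and 464 normalized counts in the control, 758, 678 and 686 in Rbbp4Ins/Ins, and 508, 623 and 540 in Rbbp4Ins/Del. It was higher in every mutant library than in every control library, and Rbbp4Ins/Ins lay above Rbbp4Ins/Del. The log2 fold change was 0.57 ± 0.07 SE in Rbbp4Ins/Ins (edgeR adjusted p = 1.35e-09) and 0.23 ± 0.07 SE in Rbbp4Ins/Del (edgeR adjusted p = 0.00394). The call in Rbbp4Ins/Del was lost when control replicate 1 or 3 or Rbbp4Ins/Del replicate 2 was left out, with values between 0.13 and 0.22.

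*Gstm2* had 162, 140 and 159 normalized counts in the control, 107, 79.0 and 105 in Rbbp4Ins/Ins, and 63.4, 62.3 and 54.4 in Rbbp4Ins/Del. The lines did not overlap, with the control highest and Rbbp4Ins/Del lowest. The log2 fold change was -0.66 ± 0.13 SE in Rbbp4Ins/Ins (edgeR adjusted p = 1.95e-05) and -1.35 ± 0.14 SE in Rbbp4Ins/Del (edgeR adjusted p = 4.54e-11). *Gstm3* had 43.6, 47.1 and 48.7 in the control, 24.8, 28.2 and 21.1 in Rbbp4Ins/Ins, and 23.5, 9.93 and 19.7 in Rbbp4Ins/Del, with all mutant libraries below the control. *Gstm6* had 23.1, 23.0 and 17.3 in the control, 11.1, 9.03 and 6.34 in Rbbp4Ins/Ins, and 4.09, 8.12 and 10.4 in Rbbp4Ins/Del. Their mutant libraries overlapped each other and lay below the control. The log2 fold change of *Gstm3* was -0.91 in Rbbp4Ins/Ins and -1.41 in Rbbp4Ins/Del (edgeR adjusted p = 0.00106 and 7.84e-06), and that of *Gstm6* was -1.23 and -1.50. The *Gstm6* call in Rbbp4Ins/Ins was lost with DESeq2 and without control replicate 1, control replicate 2 or Rbbp4Ins/Ins replicate 3, with values from -1.25 to -1.05. *Gstm6*, *Gstm3* and *Gstm2*, the lower genes, follow one another along the chromosome, and *Gstm1*, the gene that rose, comes next. Since *Gstm6* passed the filter through the control side, its place in this order is a description. *Gstm4* beyond it had a mean of 113, 113 and 109 normalized counts in control, Rbbp4Ins/Ins and Rbbp4Ins/Del, with 95% intervals of the log2 fold change from -0.27 to 0.28 and from -0.32 to 0.24. Of the 50-base stretches in their transcripts, 18.9% in *Gstm1* and 28.8% in *Gstm3* occur in other genes, which include pseudogenes, against 5.65% in *Gstm2*, 5.97% in *Gstm6* and none in *Gstm4*.

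**Figure D3:**
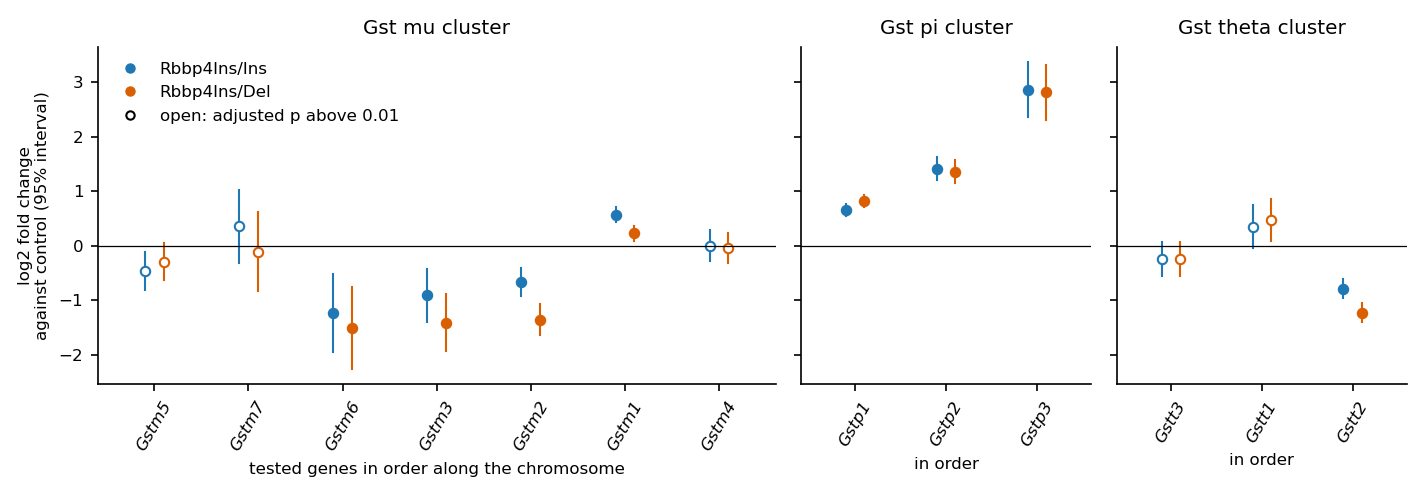
Log2 fold change against the control (edgeR, with 95% intervals) of the tested mu, pi and theta genes, in their order along chromosomes 3, 19 and 10. Filled points passed an adjusted p of 0.01. The pi genes rise from *Gstp1* to *Gstp3*, and in the mu cluster the lower values of *Gstm6*, *Gstm3* and *Gstm2* border the rise of *Gstm1*. *Gstm6* passed the filter through the control side, so its filled points say little.

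In the theta class, *Gstt2* fell, and *Gstt1* and *Gstt3* did not pass the test. *Gstt2* had 422, 492 and 457 normalized counts in the control, 263, 269 and 263 in Rbbp4Ins/Ins, and 162, 222 and 200.2 in Rbbp4Ins/Del. The lines were apart, in that order, with log2 fold changes of -0.78 ± 0.08 SE in Rbbp4Ins/Ins (edgeR adjusted p = 1.39e-10) and -1.22 ± 0.09 SE in Rbbp4Ins/Del (edgeR adjusted p = 2.74e-15). The omega, zeta and kappa classes each had 1 tested gene. *Gsto1*, an omega-class enzyme that reduces dehydroascorbate, fell in Rbbp4Ins/Del (log2 fold change -0.30, edgeR adjusted p = 3.4e-05), and its value in Rbbp4Ins/Ins was -0.14 (edgeR adjusted p = 0.0387). *Gstz1*, the zeta-class enzyme that acts in tyrosine breakdown, fell in Rbbp4Ins/Del (log2 fold change -0.27, edgeR adjusted p = 0.00115) and had -0.14 in Rbbp4Ins/Ins (edgeR adjusted p = 0.0915). Without Rbbp4Ins/Del replicate 3 the *Gstz1* value was -0.21 and was no longer called, and 9.14% of its exonic bases overlap *Pomt2* on the opposite strand. The kappa gene *Gstk1* had log2 fold changes of -0.66 and -0.58 and did not pass (edgeR adjusted p = 0.0116 and 0.023). The sigma class had no gene under these symbols.

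Among the reductases, *Akr1a1* was the most abundant. It encodes aldehyde reductase, which in mice also serves vitamin C synthesis. It had 3162, 3222 and 3086 normalized counts in the control, 4270, 4377 and 4386 in Rbbp4Ins/Ins, and 4691, 4747 and 4709 in Rbbp4Ins/Del. The lines did not overlap, and the rise was 1.38-fold in Rbbp4Ins/Ins (log2 fold change 0.46 ± 0.03 SE, edgeR adjusted p = 3.41e-16) and 1.49-fold in Rbbp4Ins/Del (0.58 ± 0.03 SE, edgeR adjusted p = 1.9e-19). *Akr1a1* held 83.0% of the level per kilobase summed over the 16 Akr1 genes in the control, 85.0% in Rbbp4Ins/Ins and 80.1% in Rbbp4Ins/Del. The Akr1c genes, with *Akr1cl* counted among them, held 1.79%, 3.81% and 6.70% of that sum. Of their 24.8, 70.9 and 144 normalized counts per kilobase, *Akr1cl* alone made up 0.307, 25.9 and 75.2. The rise of this share thus includes the rise of a gene that chose the families.

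The aldose reductase-like genes *Akr1b8* and *Akr1b10*, neighbours on chromosome 6, each passed in a single mutant. *Akr1b8* rose in Rbbp4Ins/Del, from a mean of 110 ± 19.8 to 204 ± 13.1 normalized counts (SD, n = 3, log2 fold change 0.92 ± 0.12 SE, edgeR adjusted p = 7.96e-09). In Rbbp4Ins/Ins it had 107 ± 9.39, with a log2 fold change of -0.01 and a 95% interval from -0.27 to 0.26. The difference between the mutants passed the test as well (0.92 ± 0.12 SE, edgeR adjusted p = 1.69e-07). *Akr1b10* fell in Rbbp4Ins/Ins, from 185 ± 9.40 to 132 ± 7.31 normalized counts (log2 fold change -0.48 ± 0.11 SE, edgeR adjusted p = 0.000232), and had 174 ± 26.4 in Rbbp4Ins/Del. Its difference between the mutants did not pass (0.39, edgeR adjusted p = 0.0116). *Akr1b3*, which encodes aldose reductase itself, was not tested.

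The cluster of Akr1c genes on chromosome 13 spans 560.2 kb together with *Akr1e1*, and 5 of its 8 Akr1c genes were too low to be tested. *Akr1c18* rose in both mutants. It encodes the 20-alpha-hydroxysteroid dehydrogenase that inactivates progesterone. It had 12.8, 11.5 and 19.5 normalized counts in the control, 29.1, 42.9 and 42.3 in Rbbp4Ins/Ins, and 57.2, 55.9 and 47.4 in Rbbp4Ins/Del. The lines did not overlap, and the rise was 2.61-fold (log2 fold change 1.37 ± 0.27 SE, edgeR adjusted p = 2.99e-05) and 3.66-fold (1.89 ± 0.25 SE, edgeR adjusted p = 2.08e-08). The difference between the mutants did not pass (0.52 ± 0.21 SE, edgeR adjusted p = 0.0751). *Akr1c13*, which passed the filter through mutant libraries alone, had 8.18, 21.7 and 20.8 normalized counts in Rbbp4Ins/Del against 5.98, 8.38 and 5.41 in the control, so that the lowest Rbbp4Ins/Del library lay within the control range (log2 fold change 1.35 ± 0.42 SE). Its call in Rbbp4Ins/Del was lost with DESeq2 and without control replicate 1 or 3 or Rbbp4Ins/Del replicate 2 or 3, with values from 1.10 to 1.37. Since 24.2% of the 50-base stretches of *Akr1c13* occur in *Akr1c12*, its count is uncertain. *Akr1c14*, a 3-alpha-hydroxysteroid dehydrogenase, and *Akr1e1*, the 1,5-anhydrofructose reductase at the end of the cluster, did not pass in either mutant. *Akr1e1* had log2 fold changes of 0.21 and 0.19 (edgeR adjusted p = 0.0142 and 0.0291), with all mutant libraries above the control.

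Between the mutants, 4 of the 26 tested members were higher in Rbbp4Ins/Del (15.4%) and 3 were lower (11.5%). Of all tested genes, 6.17% and 4.64% were called in those directions. Without *Gsta3* and *Akr1cl*, which chose the families, 2 of 24 members were higher (8.33%) and 3 were lower (12.5%). The higher genes of the 26 were *Akr1cl*, *Akr1b8*, *Gsta3* and *Akr1a1*, and the lower genes were *Gstm2*, *Gstt2* and *Gstm1*. *Gstm2* and *Gstt2*, which fell in both mutants, fell further in Rbbp4Ins/Del (log2 difference -0.70 ± 0.15 SE, edgeR adjusted p = 0.00089, and -0.44 ± 0.10 SE, edgeR adjusted p = 0.00102). *Gstm1* was lower in Rbbp4Ins/Del (log2 difference -0.34 ± 0.07 SE, edgeR adjusted p = 0.000175). *Akr1a1* was higher by 1.09-fold (log2 difference 0.12 ± 0.03 SE, edgeR adjusted p = 0.00392), and this call was lost whenever any mutant library was left out. The *Gstm2* and *Gstt2* differences were no longer called without Rbbp4Ins/Ins replicate 1 (-0.61) and without Rbbp4Ins/Del replicate 1 (-0.32). The number of members higher was 2 without Rbbp4Ins/Ins replicate 1 or 3 or without Rbbp4Ins/Del replicate 2 or 3.

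The genes beside *Gsta3* and *Akr1cl* were compared to see whether they moved alike. *Gsta3* rose more than its neighbours, but it was chosen by its rise, so this is a description. *Tmem14a*, 10.4 kb away and encoding a small membrane protein, rose in Rbbp4Ins/Ins (log2 fold change 0.78, edgeR adjusted p = 0.00356) and had 0.60 in Rbbp4Ins/Del (edgeR adjusted p = 0.0265). *Kcnq5*, a potassium channel gene on the other side, had 16, 16 and 14 reads in the control and 1 to 8 reads in the mutant libraries, and passed the filter through the control alone. *Tram2* fell in Rbbp4Ins/Ins (-0.50) and had -0.41 in Rbbp4Ins/Del, *Rims1* had -0.27 in Rbbp4Ins/Ins and fell in Rbbp4Ins/Del (-0.78), and *Ogfrl1* fell in both (-0.35 and -0.45). *Akr1cl* lies between a group of widely expressed genes and the gamma-crystallin cluster, which encodes structural proteins of the lens. *Plekhm3*, 55.9 kb away on the side of the widely expressed genes, had log2 fold changes of 0.00 in Rbbp4Ins/Ins and 0.02 in Rbbp4Ins/Del, and beyond it *Fzd5* (0.35 and 0.46) and *Ccnyl1* (0.26 and 0.23) rose slightly in both. The 3 nearest tested genes on the other side were *Cryge*, *Crygd* and *Cryga*, 15.8, 29.1 and 67.6 kb away. *Cryge* had 1, 1 and 0 reads in the control, 12, 9 and 10 in Rbbp4Ins/Ins, and 23, 20 and 26 in Rbbp4Ins/Del. *Crygd* had 4, 0 and 0 reads in the control, 6, 8 and 9 in Rbbp4Ins/Ins, and 19, 20 and 25 in Rbbp4Ins/Del. *Cryga* had 2, 3 and 3 reads in the control, 31, 14 and 25 in Rbbp4Ins/Ins, and 30, 49 and 18 in Rbbp4Ins/Del. These genes passed the filter through mutant libraries alone, so no test against the control is given. All mutant libraries of these genes lay above all control libraries, at levels close to the floor of 3 reads in the control. For *Cryge* the mean was at least 3.46-fold higher in Rbbp4Ins/Ins and at least 8-fold higher in Rbbp4Ins/Del, and for *Cryga* it was at least 7.68-fold higher in Rbbp4Ins/Ins and at least 10.7-fold higher in Rbbp4Ins/Del.

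**Figure D4:**
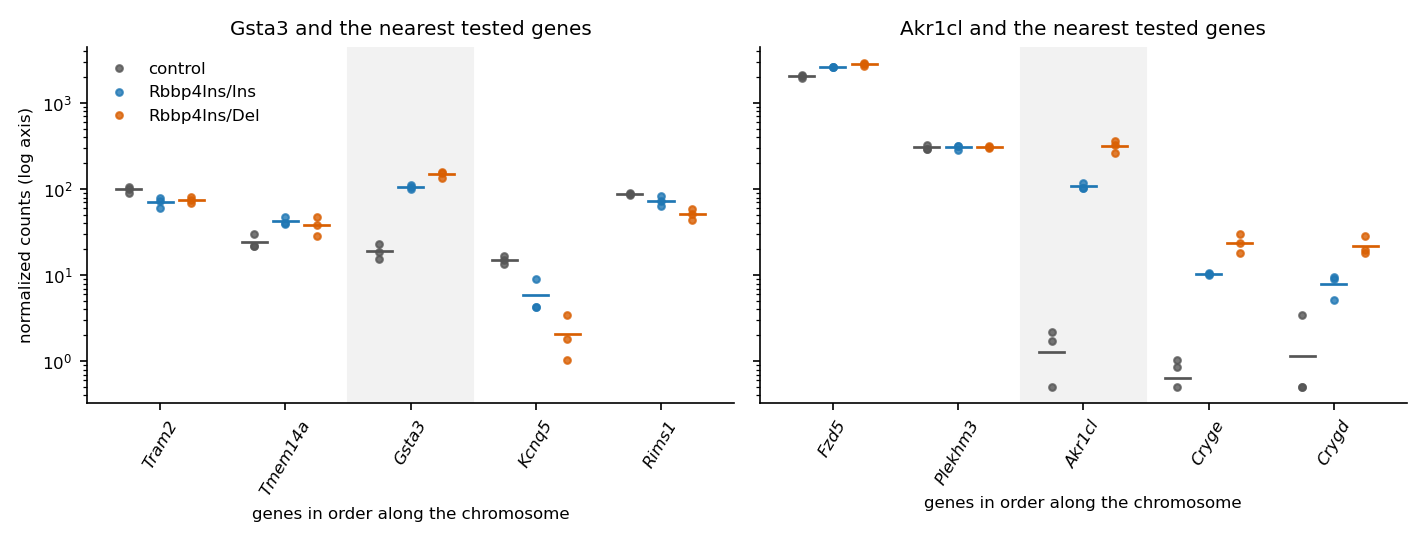
Normalized counts (log axis) of *Gsta3* and *Akr1cl* (shaded) and of the 2 nearest tested genes on each side, in chromosomal order, in control, Rbbp4Ins/Ins and Rbbp4Ins/Del libraries. Points are libraries, bars are means, and values under 0.5 are drawn at 0.5. *Gsta3*, which was chosen by its rise, rises more than the genes around it, of which *Tmem14a* also has a higher mean in both mutants. *Cryge* and *Crygd* beside *Akr1cl* are also higher in every mutant library.

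Other genes of the same pathways were taken from lists written with earlier results of these data known. Their counts are read beside the shares of all tested genes called, 29.0% higher and 29.4% lower in Rbbp4Ins/Ins and 30.6% higher and 31.9% lower in Rbbp4Ins/Del. *Nfe2l2*, which encodes NRF2, rose slightly in Rbbp4Ins/Ins (log2 fold change 0.15, edgeR adjusted p = 0.000559) and in Rbbp4Ins/Del (0.22, edgeR adjusted p = 3.35e-06). *Keap1*, its inhibitor, rose in Rbbp4Ins/Ins (0.37, edgeR adjusted p = 2.7e-05) and had 0.15 in Rbbp4Ins/Del (edgeR adjusted p = 0.0659). In the list of 12 NRF2 regulators, 6 were higher (50%) and 2 lower (16.7%) in Rbbp4Ins/Ins, and 5 were higher (41.7%) and 2 lower (16.7%) in Rbbp4Ins/Del. None of the 12 was called with a change over 2-fold in both mutants. Of 25 tested NRF2 target genes outside these families, 17 were higher (68%) and 2 lower (8%) in Rbbp4Ins/Ins, and 16 were higher (64%) and 2 lower (8%) in Rbbp4Ins/Del. The median log2 fold changes of the targets were 0.41 and 0.24, beside 0.0038 and -0.011 over all tested genes. The targets that rose over 2-fold in both mutants were the quinone reductase gene *Nqo1* (1.61 and 1.89), the heme oxygenase gene *Hmox1* (1.19 and 1.49), the microsomal epoxide hydrolase gene *Ephx1* (2.01 and 1.99) and the ferritin gene *Fth1* (1.07 and 1.12). *Gclm*, the regulatory subunit of the enzyme that starts glutathione synthesis, had 0.08 and 0.02 and did not pass. *Esd*, the target that fell over 2-fold (-1.04 and -1.14), lies on chromosome 14, where the median of 461 tested genes was -0.58 in Rbbp4Ins/Ins and -0.60 in Rbbp4Ins/Del. The 9 chromosomes that hold members had medians from -0.034 to 0.053 and from -0.065 to 0.033.

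Of 19 tested genes of glutathione synthesis, recycling and breakdown, 8 were higher (42.1%) and 2 lower (10.5%) in Rbbp4Ins/Ins, and 8 were higher and 3 lower (15.8%) in Rbbp4Ins/Del, with medians of 0.11 and 0.063. *Ggt1*, a gamma-glutamyl transferase that breaks down extracellular glutathione, rose from a mean of 43.1 normalized counts to 196 and 234 (2.21 and 2.45), and the related *Ggt5* rose from 4.39 to 13 and 15.3 (1.55 and 1.81). All 7 tested peroxidases were called in each mutant, where 58.4% and 62.5% of all tested genes were called, with 4 higher and 3 lower in Rbbp4Ins/Ins, and 3 higher and 4 lower in Rbbp4Ins/Del. *Gpx2*, best known from the gut epithelium, rose from 27.4 ± 4.69 normalized counts in the control to 751 ± 56.7 in Rbbp4Ins/Ins and 945 ± 6.07 in Rbbp4Ins/Del (SD, n = 3, log2 fold changes 4.76 and 5.09, edgeR adjusted p = 2.07e-31 and 4.4e-33). *Gpx6* rose from 2.97 to 17.2 and 19.9 (2.50 and 2.71), and *Gpx8*, an enzyme of the endoplasmic reticulum, fell from 123 to 55.3 and 40.8 (-1.13 and -1.58). *Ggt5* and *Gpx6* had no control library over the filter minimum, and the counts above include them.

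Of 12 tested genes with transferase activity or fold outside the symbol rule, the test called 1 higher (8.33%) and 7 lower (58.3%) in Rbbp4Ins/Ins, and it called 2 higher (16.7%) and 6 lower (50%) in Rbbp4Ins/Del, with medians of -0.15 and -0.17. The lower counts include *Mgst1*, *Clic5* and *Gdap1l1*, which passed the filter through the control, so the lower shares cannot be read as above those of all genes. *Mgst1*, the microsomal transferase, fell from 47.1 to 5.71 and 10.7 normalized counts (-3.04 and -2.16), *Clic5* from 80.0 to 6.76 and 4.97 (-3.49 and -3.94) and *Gdap1l1* from 93.2 to 21.4 and 10.6 (-2.06 and -3.13), whereas the prostaglandin E synthase gene *Ptges* rose from 51.7 to 197 and 223 (1.94 and 2.12). Among 29 tested carbonyl reductases and aldehyde dehydrogenases, 8 were higher (27.6%) and 9 lower (31%) in Rbbp4Ins/Ins, and 9 were higher (31%) and 11 lower (37.9%) in Rbbp4Ins/Del, with medians of 0.077 and -0.076. *Aldh3a1* (1.77 and 2.21) and the alcohol dehydrogenase gene *Adh7* (1.91 and 2.03) rose over 2-fold, and *Dhrs3* (-1.85 and -1.53) and *Aldh1a3* (-2.08 and -2.32) fell over 2-fold. Of 9 tested xenobiotic receptors and partners, 4 were higher (44.4%) and 3 lower (33.3%) in each mutant, with medians of 0.043 and 0.077. The aryl hydrocarbon receptor gene *Ahr* fell from 508 to 195 and 192 normalized counts (-1.37 and -1.41), and its target *Cyp1b1* fell from 114 to 12.9 and 3.85 (-3.16 and -4.89). *Hnf4a*, a factor of liver and visceral endoderm, rose from 4.19 to 56.3 and 67.8 (3.68 and 3.96). *Adh7* and *Hnf4a* had no control library over the filter minimum. *Mgst1*, *Clic5*, *Gdap1l1*, *Aldh1a3*, *Cyp1b1* and *Ahrr* had at most 1 library over it in Rbbp4Ins/Del, and *Mgst1*, *Clic5*, *Aldh1a3* and *Ahrr* had 0 in Rbbp4Ins/Ins. *Ahrr* (-1.40) and *Cyp1b1* are among the 3 xenobiotic genes lower in Rbbp4Ins/Del. That lower share therefore cannot be read as above or near the share of all genes. The list counts above include these genes.

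**Figure D5:**
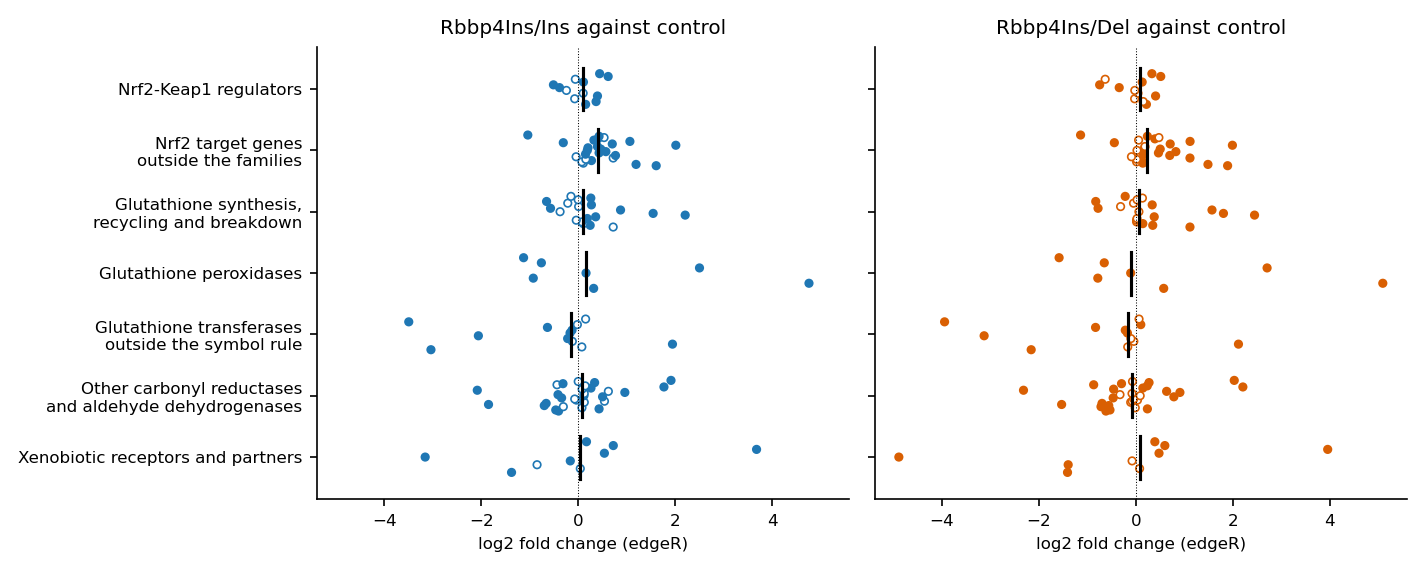
Log2 fold change against the control (edgeR) of the tested genes of 7 pathway lists, in Rbbp4Ins/Ins and in Rbbp4Ins/Del. Filled points passed an adjusted p of 0.01, and black bars are list medians. The medians lie between -0.17 and 0.41, and single genes such as *Gpx2* and *Cyp1b1* lie far from them.

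Markers of other cell types were read beside these values. Of all tested genes, 29.0% were called higher and 29.4% lower in Rbbp4Ins/Ins, and 30.6% higher and 31.9% lower in Rbbp4Ins/Del. The 12 markers of primitive and visceral endoderm summed to 402 to 440 normalized counts in the control, 288 to 367 in Rbbp4Ins/Ins and 393 to 429 in Rbbp4Ins/Del. *Dab2*, its most abundant marker, fell from a mean of 265 to 104 and 109. The median log2 fold change of the 7 tested markers was 0.49 in Rbbp4Ins/Ins, with 2 higher (28.6%) and 2 lower (28.6%). In Rbbp4Ins/Del it was 0.81, with 4 higher (57.1%) and 2 lower (28.6%). Among the 4 was *Sox17*, which had no control library over the filter minimum. *Sox7* rose 3.18-fold and 4.77-fold. The secreted-protein markers *Afp*, *Ttr*, *Apoa1*, *Apoa4* and *Alb* had at most 10 reads in every library. The 7 fibroblast markers summed to 578 to 678 in the control, 256 to 283 in Rbbp4Ins/Ins and 342 to 364 in Rbbp4Ins/Del. In that list *Col1a1*, *Col1a2* and *Col3a1* fell and *Thy1* rose in both mutants, and *Col1a2* and *Col3a1* had at most 1 library over the filter minimum in each mutant. The 7 trophoblast markers summed to 1531 to 1605 in the control, 1954 to 2058 in Rbbp4Ins/Ins and 1297 to 1343 in Rbbp4Ins/Del. Most of that sum was *Tfap2c*, with means of 1260, 1763 and 1086. The median of the 6 tested markers was -0.68 in Rbbp4Ins/Ins, with 2 higher (33.3%) and 3 lower (50%). In Rbbp4Ins/Del it was -0.76, with 1 higher (16.7%) and 4 lower (66.7%). The lower counts include *Cdx2*, which had no library over the filter minimum in either mutant. The part of these markers in the results of the families was not tested, and in bulk RNA a change in the share of cells and a change per cell cannot be told apart.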

How the data were processed

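RNA from 9 E14 ESC libraries was sequenced by the authors as paired-end reads of 50 bp (Kapa mRNA HyperPrep kit), aligned to mm10 with STAR 2.7.3 and counted with HTSeq. The authors deposited these counts, whole numbers for each gene symbol that are not normalized. The annotation and strand setting of the counting are not given in the sources used here. Members and gene lists were chosen with earlier results of these data known. Here low genes were removed with filterByExpr (a minimum of 0.575 CPM), libraries were scaled by TMM, and edgeR 4.0.16 (R 4.3.3) fitted the quasi-likelihood model to all 9 libraries in 3 groups. Benjamini-Hochberg adjustment covered all 14125 genes, with a limit of 0.01, which the authors also used with DESeq2 1.22.2. No test was run over a list. Positions come from GENCODE M21 and promoters from RefSeq, both on GRCm38. All 38 members matched 1 GENCODE gene each. Repeats of 50 bases were counted in the GENCODE transcripts. Named in full were *Gsta3*, *Akr1cl*, the members called in both mutants and the most abundant member of each family; other members were named by call or count, and list genes when called over 2-fold in both mutants, besides *Nfe2l2*, *Keap1*, and, chosen after their values were seen, *Gclm*, *Zfp42*, *Klf4* and *Tfap2c*. A neighbour of *Gsta3* is not reported here. The fits were tested on simulated data. Alternatives were DESeq2 1.42.0, its size factors, total counts, all genes with a read, 2 groups only, a replicate block, a limit of 0.05 each library left out and, chosen after seeing the data, members over the minimum on both sides.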

Additional observations from a re-analysis of the deposited data

Results flagged for a closer look

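The effects of the mutant lines differed from each other, by the edgeR test of Rbbp4Ins/Del against Rbbp4Ins/Ins, at 7 members. The log2 differences were 1.54 for *Akr1cl*, 0.92 for *Akr1b8*, 0.49 for *Gsta3*, 0.12 for *Akr1a1*, -0.34 for *Gstm1*, -0.44 for *Gstt2* and -0.70 for *Gstm2*. *Akr1b8* was the only one of these that differed from the control in Rbbp4Ins/Del and not in Rbbp4Ins/Ins. For *Akr1cl*, *Gsta3*, *Akr1a1*, *Gstm2* and *Gstt2* the line further from the control was Rbbp4Ins/Del, and for *Gstm1* it was Rbbp4Ins/Ins. The calls of *Akr1a1*, *Gsta3*, *Gstm2* and *Gstt2* were lost in at least 1 fit that left out a library of a mutant.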

How the results depend on the processing

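Of 34 called values of single members, leaving out *Gsta3* and *Akr1cl* against the control, 26 kept their direction and call under all 15 other fits, and none changed sign. The 34 include *Gstm6* in both mutants and *Akr1c13* in Rbbp4Ins/Del, which passed the filter through 1 side, so their calls say little here. The number of other members lower in Rbbp4Ins/Ins went from 5 to 9 at an adjusted p of at most 0.05. A looser limit also calls more of all genes, and their share at 0.05 was not counted. With each library left out in turn, the number of members higher in Rbbp4Ins/Del than in Rbbp4Ins/Ins lay between 2 and 4. Over all tested genes it lay between 576 and 943 in these fits. The *Gstt2* difference between the mutants was -0.32 without Rbbp4Ins/Del replicate 1 and the *Gstm2* difference was -0.61 without Rbbp4Ins/Ins replicate 1, both no longer called. The *Akr1a1* difference lay between 0.11 and 0.13 and was not called in any of the 6 fits without a mutant library. The estimate of *Akr1cl* against the control, which rests on 4 control reads, ranged from 5.75 to 6.68 in Rbbp4Ins/Ins and from 7.29 to 8.22 in Rbbp4Ins/Del. Same-numbered libraries did not deviate together (correlations from -0.039 to 0.044 over 9 pairs), so the numbers were not taken as pairs. With a replicate block, 7 other members were higher and 5 lower in Rbbp4Ins/Ins, 9 higher and 6 lower in Rbbp4Ins/Del, and 4 higher and 3 lower between the mutants, the same counts as without it. Of all 14125 tested genes, the block called 4077 higher and 4148 lower in Rbbp4Ins/Ins. It called 4308 and 4487 in Rbbp4Ins/Del, and 857 and 642 between the mutants. The cause of these changes was not tested.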
